A study of Mus musculus with 10 samples.

Results

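The 9 transcription factors described here, Elf3, Elf5, Ehf, Gata2, Gata3, Grhl2, Tfap2b, Tfcp2l1 and Pax8, are associated with the collecting duct lineage and were taken by gene symbol from the 55414 genes of the expression table. All 9 were found there, and 7 of them were among the 20000 genes with the highest mean level, which were tested. The cells were mpkCCD cells, an immortalized mouse line of cortical collecting duct principal cells, and the study used them to ask what depends on Camk2d, a calcium/calmodulin-dependent protein kinase proposed to act in vasopressin signalling. RNA-seq was run on 10 samples, all grown on permeable filters with the vasopressin V2-receptor agonist dDAVP at 0.1 nM until day 7. The 5 Camk2d-intact samples were the parental line with 1 sample and 2 clones with 2 samples each, the clones having gone through transfection without a mutation in Camk2d. The 5 Camk2d KO samples were 5 separate clones carrying CRISPR-Cas9 insertions or deletions in Camk2d, KO 1 and KO 2 from the guide to exon 8 and KO 3 to KO 5 from the guide to exon 9. The labels give a C57BL/6 background. Each KO sample is thus 1 clone of 1 guide, no sample was grown without dDAVP, and nothing states that the paired samples of an intact clone were separate cultures, so part of the spread behind the p-values may be technical.

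Principal cells of the collecting duct take up water through the channel Aqp2, whose gene is strongly induced by vasopressin. Transcription factors of several families shape and maintain this epithelium: ETS factors (Elf3, Elf5, Ehf) recognise a GGAA core, GATA factors (Gata2, Gata3) recognise GATA, Grainyhead and CP2 factors (Grhl2, Tfcp2l1) act on epithelial junction genes and on cell fate in the duct, the AP-2 factor Tfap2b is expressed in the distal nephron, and the paired-box factor Pax8 marks the whole nephric lineage. Binding of ETS and GATA factors near the Aqp2 gene has long been considered in the study of its transcription.

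To place these recognition cores, the 250 bases upstream of the annotated start were read for Aqp2, the gene against which the factors are compared, for Elf3, the most abundant factor, and for Gata3, whose levels followed Aqp2 among the KO clones. The starts and sequences are those of RefSeq on build GRCm38.p6. The Gata3 window lies wholly inside the longer span that GENCODE M21 gives the gene, 11.2 kb from its first start, and 96 bases of the Elf3 window lie inside its span. The sequences are written 5′ to 3′ on the strand of the gene. Capitals mark GATA and GGAA on either strand (TATC and TTCC on the other strand).
Aqp2, chr15:99578806-99579055, plus strand: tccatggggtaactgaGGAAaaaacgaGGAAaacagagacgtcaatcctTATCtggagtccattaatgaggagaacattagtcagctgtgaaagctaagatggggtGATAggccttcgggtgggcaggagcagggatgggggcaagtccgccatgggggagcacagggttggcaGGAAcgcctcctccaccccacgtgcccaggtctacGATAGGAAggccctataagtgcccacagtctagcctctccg
Elf3, chr1:135258473-135258722, minus strand: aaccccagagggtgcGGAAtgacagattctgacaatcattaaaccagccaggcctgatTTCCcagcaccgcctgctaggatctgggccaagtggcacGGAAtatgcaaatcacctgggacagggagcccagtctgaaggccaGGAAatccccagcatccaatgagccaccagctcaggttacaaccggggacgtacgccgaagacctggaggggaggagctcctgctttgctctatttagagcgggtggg
Gata3, chr2:9878601-9878850, minus strand: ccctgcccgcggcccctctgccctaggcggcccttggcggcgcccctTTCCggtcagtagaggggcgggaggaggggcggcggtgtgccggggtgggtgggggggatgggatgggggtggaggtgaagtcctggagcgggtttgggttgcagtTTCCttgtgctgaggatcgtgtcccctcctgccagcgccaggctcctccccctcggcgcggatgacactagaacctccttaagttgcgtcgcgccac
The Aqp2 window held 3 GATA cores and 4 GGAA cores. Of the 32851 promoter windows of the same length, 53.6% held GATA at least once and 9.62% held it 3 times or more, while 93.4% held GGAA at least once and 33.4% held it 4 times or more. The longer Grainyhead motif AACCGGTT, present in 0.116% of windows, and the AP-2 motif GCCNNNGGC, present in 13.7%, were not in the Aqp2 window. The Elf3 window held 4 GGAA cores and no GATA, whereas the Gata3 window held 2 GGAA cores, no GATA, 3 matches to GCCNNNGGC and 19 CpG, against a median of 6 CpG over all windows. Windows were found for 7 of the 9 factors (Ehf and Grhl2 had none). GATA was also in the windows of Pax8, Tfap2b and Elf5, and a match to these letters is a description of the window only.

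Levels are the authors' TPM, which scale reads by transcript length, so that genes can be compared with each other. Because each sample's TPM add up to an equal total, they hold no depth, and counting error could not be given. In each sample 19344 to 20052 genes were above 0 and 0.800% to 1.00% of the TPM lay on the mitochondrial genome. Camk2d was at 123 to 141 TPM in the intact samples and 19.8 to 29.8 TPM in the KO clones, so its level followed the labels. The general epithelial genes Krt18, at 5162 to 5754 TPM, and Cdh1, at 809 to 975 TPM, were abundant in every sample. Of 18 principal cell genes, 14 had a mean of at least 1 TPM. Besides Aqp2, the V2 receptor gene Avpr2 was at 114 to 264 TPM and the sodium channel subunit Scnn1a at 141 to 260.4 TPM, whereas the water channels Aqp3 and Aqp4 were at 1.10 to 3.34 TPM and 0.07 to 8.54 TPM, and Scnn1b, Kcne1, Kcnj1 and Slc14a2 were each below 1 TPM in every sample (apart from Aqp2, these genes were named after their values were seen). Of the markers of other cells, Umod of the loop of Henle was listed at 0 in all samples, and Ptprc, the defining gene of leukocytes, was at 0.06 to 0.62 TPM. Csf1r and Cd68, receptor and lysosomal genes known from macrophages, were present in every sample at 8.88 to 25.7 TPM and 3.51 to 9.05 TPM, and the summed leukocyte and endothelial list was at 15.04 to 21.9 TPM in intact and 14.9 to 30.3 TPM in KO samples. Its part in the results was not tested.

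The 9 factors spanned a wide range of expression. Elf3 was the most abundant, with a mean of 601 TPM over 10 samples and rank 197 among all genes. Pax8 followed at 337 TPM, Ehf at 269.8 TPM and Gata3 at 257 TPM. Tfcp2l1 at 63.5 TPM and Grhl2 at 59.2 TPM formed a lower pair, Gata2 was at 4.03 TPM, and Elf5 and Tfap2b were at or near 0. Elf3 was above Pax8, and Pax8 above Ehf, in 10 of 10 samples. Ehf and Gata3 did not separate, with Ehf the higher in 6 of 10 samples, and neither did Tfcp2l1 and Grhl2, with Tfcp2l1 the higher in 7 of 10. Gata3 was above Tfcp2l1, Grhl2 above Gata2, and Gata2 above Elf5 in all 10 samples.

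**Figure D1:**
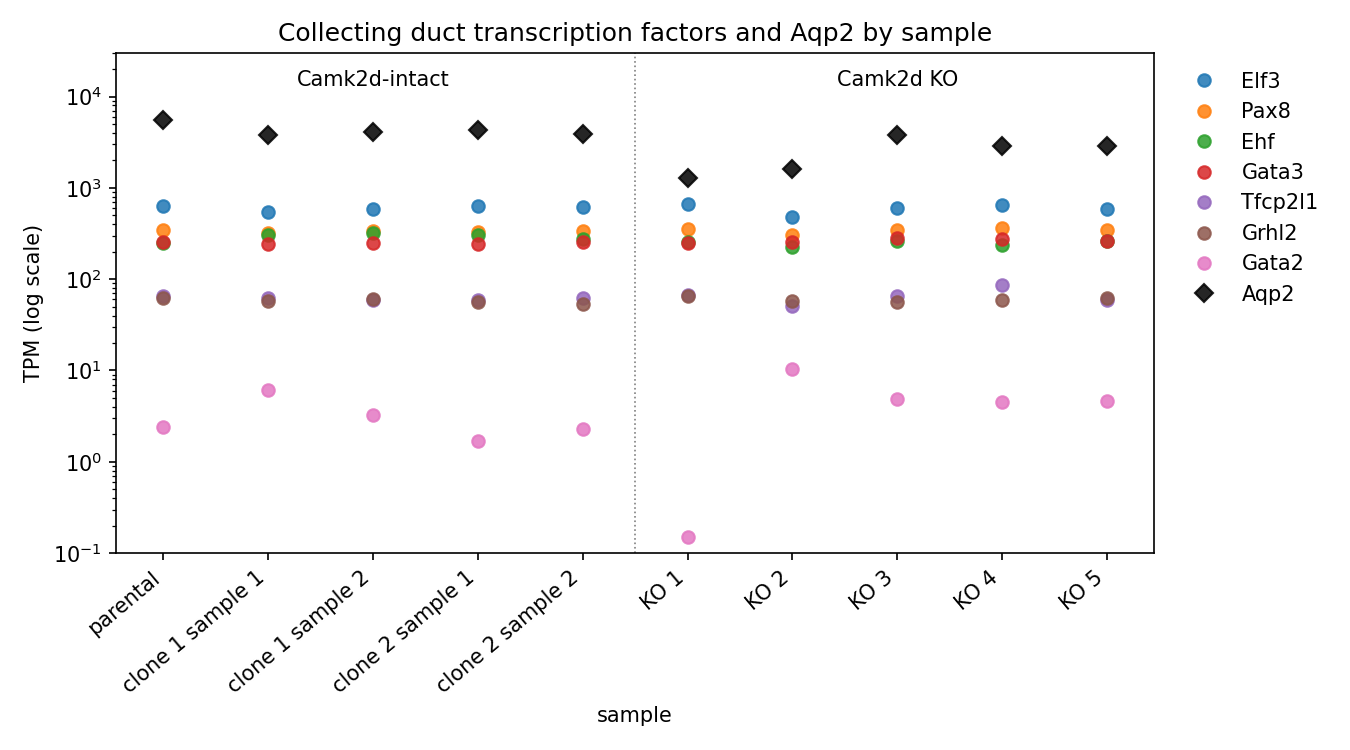
Level in TPM (log axis) of the 7 transcription factors with a mean of at least 1 TPM and of Aqp2 (diamonds) in each of the 10 samples, 1 point per sample. Aqp2 is lowest in KO 1 and KO 2, Gata2 spreads from 0.15 TPM in KO 1 to 10.5 TPM in KO 2, and of the other 6 factors Tfcp2l1 spreads the most, from 50.6 TPM in KO 2 to 86.8 TPM in KO 4.

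Of the 3 ETS factors, Elf3 and Ehf were abundant and Elf5 was not. Elf3, an epithelium-specific ETS factor (ENSMUSG00000003051, chr1:135253575-135258568, minus strand, GRCm38), was at 635 TPM in the parental line, 542 and 581 TPM in intact clone 1 and 638 and 621 TPM in intact clone 2. In the KO clones it was at 665 TPM in KO 1, 484 TPM in KO 2, 606 TPM in KO 3, 647 TPM in KO 4 and 587 TPM in KO 5. KO 2 was the lowest and KO 1 the highest of all samples, although both came from the exon 8 guide. The group means were 603 ± 41.2 TPM (SD, n = 5) in intact and 598 ± 71.0 TPM (SD, n = 5) in KO samples, and the groups overlapped.

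Ehf, another epithelium-specific ETS factor, was lower in KO clones on average. It was at 249 TPM in the parental line, 304 and 322 TPM in intact clone 1 and 302 and 278 TPM in intact clone 2. It was at 254, 228, 263, 238 and 260.4 TPM in KO 1 to KO 5. All 4 samples of the intact clones lay above every KO clone, but the parental line lay among the KO clones, so the groups overlapped. The means were 291 ± 28.4 TPM (SD, n = 5) in intact and 248 ± 15.3 TPM (SD, n = 5) in KO samples. A two-sided exact permutation test of this single gene over all arrangements of the samples gave p = 0.0317, which is not adjusted for the genes examined, and the smallest p this design allows is 0.00794. After adjustment over all genes the difference did not pass, with an adjusted p of 0.569 by limma. Both tests count the paired samples of an intact clone separately. With 1 value per cell line the limma difference was -0.19 with an unadjusted p of 0.0545 (adjusted 0.998).

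Elf5, the close relative whose gene lies next to Ehf, was listed at 0 in 8 of 10 samples. Its values above 0 were 0.11 TPM in intact clone 2 sample 1 and 0.14 TPM in KO 1. On GRCm38 the end of Ehf (chr2:103263433-103303278, minus strand) and the start of Elf5 (chr2:103411688-103450989, plus strand) are 108.4 kb apart, with 0 protein-coding and 3 annotated genes between them. These neighbours thus differed by more than the spread of either gene in every sample.

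Of the GATA factors, Gata3 was abundant and steady, and Gata2 was low and the most variable of the 7 tested factors. Gata3 (chr2:9857078-9890034, minus strand) was at 258 TPM in the parental line, 240.4 and 251.8 TPM in intact clone 1 and 243 and 256 TPM in intact clone 2. It was at 251, 256, 280.2, 275 and 259 TPM in KO 1 to KO 5. The 3 exon 9 KO clones were above every intact sample and the exon 8 KO clones were among them. The means were 249.8 ± 7.84 TPM (SD, n = 5) in intact and 264 ± 12.6 TPM (SD, n = 5) in KO samples.

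Gata2 (chr6:88193891-88207032, plus strand) was at 2.38 TPM in the parental line, 6.11 and 3.29 TPM in intact clone 1 and 1.71 and 2.30 TPM in intact clone 2. It was at 0.15 TPM in KO 1, 10.5 TPM in KO 2, 4.85 TPM in KO 3, 4.47 TPM in KO 4 and 4.58 TPM in KO 5. The extremes of the whole series were thus the exon 8 KO clones, KO 1 near 0 and KO 2 the highest, while the 3 exon 9 KO clones lay close together. The paired samples of intact clone 1 differed 1.86-fold, so a low gene of this kind varied even within a clone. Group means were 3.16 ± 1.74 TPM (SD, n = 5) in intact and 4.91 ± 3.68 TPM (SD, n = 5) in KO samples.

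Of the Grainyhead and CP2 factors, Grhl2, a regulator of epithelial junction genes, was nearly level. It was at 61.5 TPM in the parental line, 58.1 and 60.7 TPM in intact clone 1, 57.0 and 53.6 TPM in intact clone 2, and 65.6, 57.4, 56.1, 59.9 and 62.5 TPM in KO 1 to KO 5. The means of 58.2 ± 3.17 TPM (SD, n = 5) in intact and 60.3 ± 3.83 TPM (SD, n = 5) in KO samples differed by less than 1 SD.

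Tfcp2l1, a CP2-family factor needed for the patterning of collecting duct cell types, was at 66.0 TPM in the parental line, 61.7 and 59.3 TPM in intact clone 1 and 59.2 and 61.9 TPM in intact clone 2. It was at 66.6, 50.6, 64.7, 86.8 and 58.8 TPM in KO 1 to KO 5. Intact samples were tight at 61.6 ± 2.76 TPM (SD, n = 5), and KO clones ranged from KO 2, below all intact samples, to KO 4, above all of them, at 65.5 ± 13.4 TPM (SD, n = 5).

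Pax8, the paired-box factor of the nephric lineage (chr2:24420560-24475599, minus strand), was at 349.7 TPM in the parental line, 321 and 333 TPM in intact clone 1 and 328 and 333 TPM in intact clone 2. It was at 351, 306, 349.8, 361 and 341.5 TPM in KO 1 to KO 5. KO 2 was the lowest sample. The means were 333 ± 10.5 TPM (SD, n = 5) in intact and 342 ± 21.4 TPM (SD, n = 5) in KO samples. Tfap2b, the AP-2 factor, was listed at 0 in 9 of 10 samples and at 0.01 TPM in KO 4. It and Elf5 were too low to be tested.

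**Figure D2:**
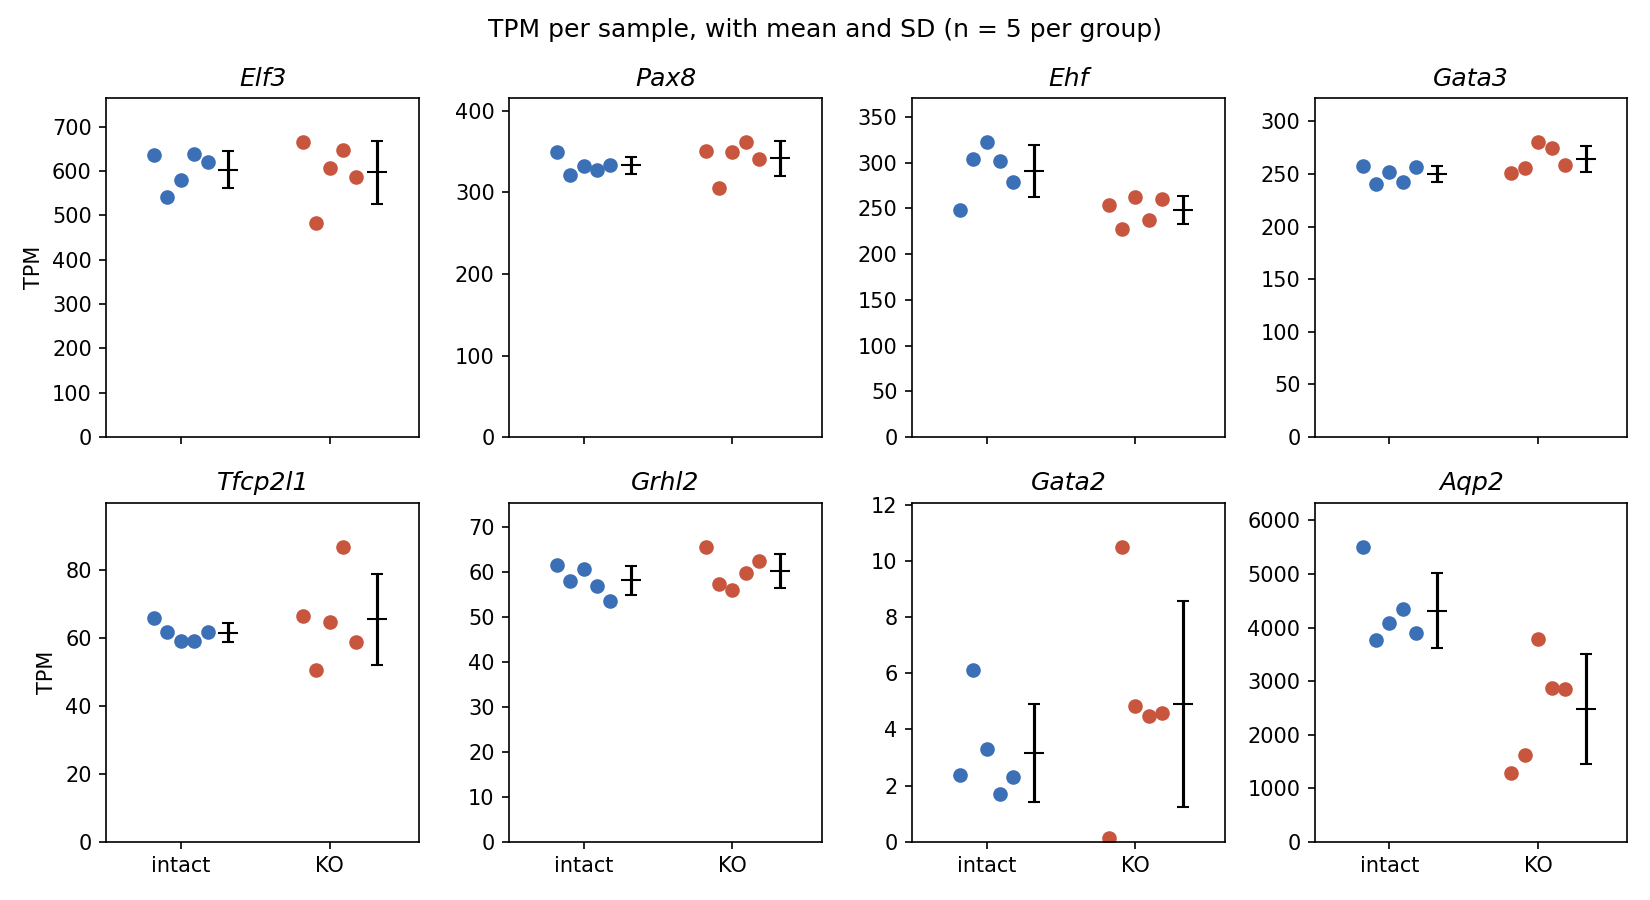
TPM of each factor and of Aqp2 in the 5 intact and the 5 KO samples (points), with the mean and SD of each group beside them. Each panel has its own linear axis from 0, and the groups overlap in every panel, with Ehf at 291 and 248 TPM and Aqp2 at 4318 and 2485 TPM on average.

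Annotation leaves some of these values slightly uncertain. In the GENCODE M21 annotation at least 99.1% of the 50-base windows of each factor's transcripts occurred in no other gene, so sharing of reads with relatives was small. Exons of other genes overlapped 7.31% of the exonic bases of Elf3 (Gm26642, antisense), 6.06% of Pax8 (Gm13415) and 5.83% of Gata3 (Gm13256, antisense, and 9230102O04Rik). No step that marks the strand was described for the libraries, so reads from such overlaps cannot be told apart.

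The first comparison asked whether these factors differ between KO and intact cells. On log2(TPM + 1), a scale on which the differences of low genes such as Gata2 depend on the value added, limma called 0 of the 7 tested factors at an adjusted p under 0.05, where 0.005% of all 20000 genes, which is Camk2d alone, were called. At an unadjusted p under 0.05, limma gave 1 of the 7, Ehf, against 6.99% of all genes. No factor separated the groups without overlap, which 1.64% of all genes did. The median difference of the 7 factors was 0.050 and that of all genes 0.019. The median size of the difference, regardless of sign, was 0.066 for the factors and 0.078 for all genes. In bulk RNA, fewer cells of a type and less RNA per cell cannot be told apart.

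Ehf was lower in KO samples by 0.22 on the log2 scale (0.856-fold), with a 95% interval from -0.38 to -0.065, and an unadjusted p of 0.0104 by limma. Its direction was kept, between -0.28 and -0.19, when any 1 sample was left out. Gata3 was higher by 0.080 (interval -0.014 to 0.17, adjusted p = 0.759 by limma). The differences of the others were -0.020 for Elf3 (interval -0.21 to 0.17), 0.036 for Pax8 (-0.075 to 0.15), 0.050 for Grhl2 (-0.072 to 0.17) and 0.066 for Tfcp2l1 (-0.19 to 0.32). For these 6 factors, the outermost bounds of the intervals were thus -0.38 and 0.32. Gata2 differed by 0.27, but its interval from -0.89 to 1.44 allows a sizeable change in either direction, and the difference was 0.061 with a pseudocount of 0.1. Two-sided exact permutation tests of the single genes gave p = 0.849 for Elf3, p = 0.460 for Pax8, p = 0.0794 for Gata3, p = 0.651 for Tfcp2l1, p = 0.381 for Grhl2 and p = 0.698 for Gata2. In the same samples Aqp2 was lower in KO by 0.89 (interval -1.497 to -0.29, adjusted p = 0.565 by limma, exact permutation p = 0.0159 for this gene alone).

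The second comparison asked whether the 2 guides gave the same levels. With the exon 9 clones set against the exon 8 clones, limma called 0 of the 7 factors, against 0.31% of all genes. At an unadjusted p under 0.05 there were also 0 of 7, against 12.1% of all genes. The differences (exon 9 minus exon 8) were 0.11 for Elf3, 0.10 for Pax8, 0.076 for Ehf, 0.096 for Gata3, 0.25 for Tfcp2l1 and -0.045 for Grhl2, and the outermost interval bounds of these 6 were -0.23 and 0.60. With 1 sample left out, the difference ranged from -0.12 to 0.34 for Elf3 and from 0.00076 to 0.20 for Pax8. It ranged from -0.0032 to 0.15 for Ehf and from 0.054 to 0.44 for Tfcp2l1. The low ends came without KO 2, when 1 exon 8 clone remained. For Gata2 the difference was 0.63 with an interval from -1.10 to 2.37, and this value also turned on the exon 8 clones. With a pseudocount of 0.1 it was 1.54, and the difference of the exon 8 clones from intact samples went from -0.11 to -0.86. It was -1.03 without KO 1, and 2.29 without KO 2. In each case 1 exon 8 clone remained, and its spread was assumed to be that of the other groups. Aqp2 was higher in exon 9 clones by 1.13 (interval 0.70 to 1.55, adjusted p = 0.0513 by limma). Over 20 alternatives this p was 0.0302 to 0.161, with 8 below 0.05, and it was 0.148 with 1 value per cell line.

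Set against the same 5 intact samples, which the contrasts of both guides share, the exon 8 clones showed Ehf at -0.27 (interval -0.49 to -0.054, adjusted p = 0.262 by limma) and the exon 9 clones showed it at -0.19 (interval -0.38 to -0.0054, adjusted p = 0.904 by limma). For Gata3 the values were 0.023 in exon 8 clones and 0.12 in exon 9 clones (interval 0.022 to 0.21, adjusted p = 0.802 by limma). For Tfcp2l1 they were -0.083 and 0.16, for Elf3 -0.087 and 0.025, and for Pax8 -0.024 and 0.075. With 1 sample left out, these exon 8 values ranged from -0.28 to 0.11, -0.32 to 0.14 and -0.12 to 0.075, in that order. Each reached its upper end, above 0, without KO 2, when 1 exon 8 clone remained. The exon 9 value of Tfcp2l1 ranged from 0.0026 to 0.28. In exon 8 clones limma called 0 of the 7 factors and 0.595% of all genes. At an unadjusted p under 0.05 there was 1 factor, Ehf, against 14.7% of all genes. In exon 9 clones limma called 0 of the 7 and 0.005% of all genes. At an unadjusted p under 0.05 there were 2 factors, Ehf and Gata3, against 5.5% of all genes. With 1 value per cell line the unadjusted p of Ehf by limma was 0.0623 in exon 8 clones and 0.14 in exon 9 clones. That of Gata3 in exon 9 clones was 0.0625, at a difference of 0.11. Aqp2 was called in the exon 8 clones, at -1.57 with an adjusted p of 0.00593 by limma (0.072 with 1 value per cell line).

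**Figure D3:**
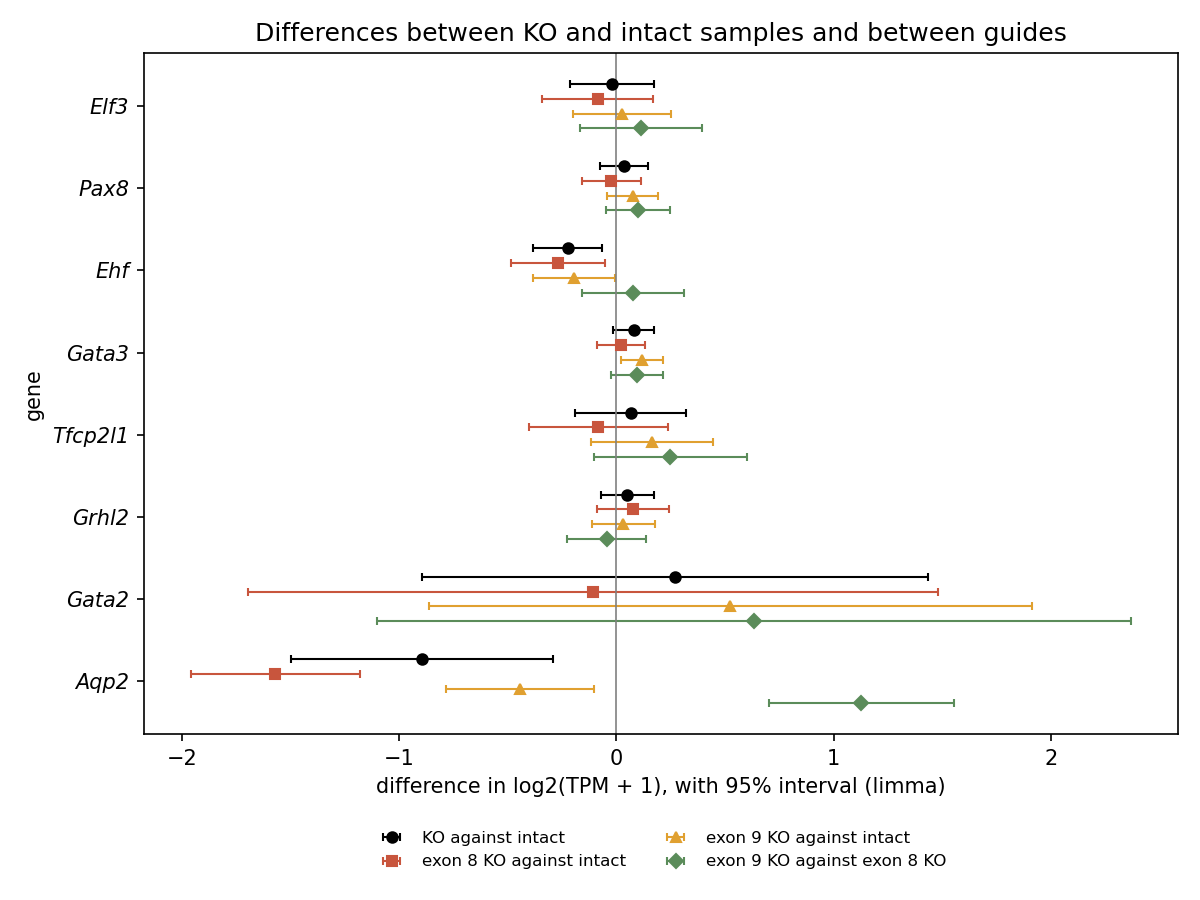
Difference in log2(TPM + 1) for each factor and Aqp2 with its 95% interval from limma, for KO against intact samples, each guide against intact samples and exon 9 against exon 8 clones. The intervals of 6 factors lie between -0.49 and 0.60, that of Gata2 is the widest among the factors, and Aqp2 moves to -1.57 in exon 8 clones.

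The intact clones gave the size of differences between clones of 1 genotype. Between intact clone 2 and intact clone 1, limma called 0 of the 7 factors and 0% of all genes, while 17% of all genes and 1 factor, Elf3, had an unadjusted p under 0.05. Elf3 was higher in clone 2 by 0.17 (interval 0.018 to 0.31, adjusted p = 0.261 by limma). Gata2 was lower in clone 2 by 0.89 (interval -1.91 to 0.14, adjusted p = 0.337 by limma). Ehf differed by -0.11 (interval -0.298 to 0.073) and the remaining 4 factors by -0.10 to 0.020.

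Variation was also described across the 8 cell lines, with the paired samples of an intact clone averaged. The coefficient of variation was 4.68% for Gata3, 5.22% for Pax8, 5.78% for Grhl2, 9.68% for Elf3, 10.7% for Ehf and 16.2% for Tfcp2l1. Their median, 7.73%, lay near that of all 4589 genes with a mean of at least 50 TPM, 8.10% (quartiles 5.67% to 11.6%). Gata3 was among the steadier of these genes, 14.6% of which had a lower value, and Tfcp2l1 among the more variable, with 90.6% lower. Aqp2 varied by 42.6% and Gata2, which is below 50 TPM, by 72.5%. KO 2 was the lowest line for 4 of the 7 factors (Elf3, Ehf, Tfcp2l1 and Pax8), and it was the lowest line for 20.1% of the 13047 genes with a mean of at least 1 TPM. It was also the highest line for 1 factor, Gata2, and for 31.3% of those genes, the largest share of any line at both ends. In KO 2 the epithelial gene Rab25 was at 293 TPM against 447 to 511 TPM elsewhere, Epcam at 941 TPM against 697 to 756 TPM, and Fn1, a matrix gene listed as mesenchymal, at 122 TPM against 23.3 to 76.6 TPM. The part of these differences in the factor levels was not tested.

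The third question was whether the factors followed the level of Aqp2 from line to line. Aqp2 ranged 4.29-fold over samples, from 1281 TPM in KO 1 to 5502 TPM in the parental line. Elf3 ranged 1.38-fold, Ehf 1.42-fold, Tfcp2l1 1.72-fold, Gata3 1.17-fold, Pax8 1.18-fold and Grhl2 1.22-fold. Gata2 ranged more than Aqp2, 69.9-fold, with its lowest value near 0. Over the 8 lines, Pearson's r of log2(TPM + 1) with Aqp2 was 0.47 for Ehf (rho = 0.43), 0.22 for Elf3 (rho = 0), 0.22 for Pax8 (rho = -0.14), 0.17 for Tfcp2l1 (rho = 0.095), 0.16 for Gata2 (rho = -0.19), 0.12 for Gata3 (rho = -0.12) and -0.40 for Grhl2 (rho = -0.43). The smallest exact permutation p of r among the 7 was that of Ehf, p = 0.239 (adjusted 0.763), followed by p = 0.320 for Grhl2 (adjusted 0.800), and p was 0.601 to 0.794 for the other 5. For rho the exact permutation p was at least 0.299 for all 7. No gene of the 19999 compared passed an adjusted p of 0.05 by this exact permutation test, with 0% called, 8.12% at an unadjusted p under 0.05 and 0.283 as the smallest adjusted p. Without KO 1 and KO 2, the lines farthest from the median of Aqp2 on the log2(TPM + 1) scale, r was 0.20 for Ehf, 0.14 for Elf3, -0.23 for Pax8, -0.30 for Tfcp2l1, -0.67 for Gata2, -0.35 for Gata3 and -0.16 for Grhl2. The sign of r thus turned for 4 factors. It also turned when single lines were left out, for Pax8, Tfcp2l1 and Elf3 without KO 2, for Gata2 and Grhl2 without KO 1, and for Gata3 without KO 1 or without KO 3 (r = -0.083 and -0.024).

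Within genotypes, Gata3 came nearest to the order of Aqp2. Among KO clones Aqp2 ran, from high to low, KO 3, KO 4, KO 5, KO 2 and KO 1, and Gata3 ran in that order, at 280.2, 275, 259, 256 and 251 TPM. Of all genes, 0.515% were in that order, and Gata3 was 1 of 7 factors. KO 4 and KO 5 had nearly the same Aqp2, 2880 and 2856 TPM. Among the intact lines both genes were highest in the parental line, then in clone 2 and then in clone 1. So were 16.6% of all genes, among them the factors Elf3, Tfcp2l1 and Pax8. The KO order and the intact order were both held by 0.09% of all genes. In Gata3 the paired samples of 1 clone differed 1.05-fold to 1.06-fold. That is more than the difference between the clone means of 246 and 249.6 TPM, so the intact order of Gata3 is not beyond the replicate spread. Of the 4 steps between neighbouring KO clones, 3 were within it (at most 1.02-fold), and the step from KO 4 to KO 5, 1.06-fold, was about as large as that spread. With each genotype centred on its own mean, r between Gata3 and Aqp2 was 0.88 over the 8 lines, a value that 0.585% of genes reached. The same quantity was 0.47 for Pax8, 0.39 for Gata2, 0.35 for Tfcp2l1, 0.20 for Elf3, 0.023 for Ehf and -0.35 for Grhl2. These centred values were chosen from 7 factors and carry no test.

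**Figure D4:**
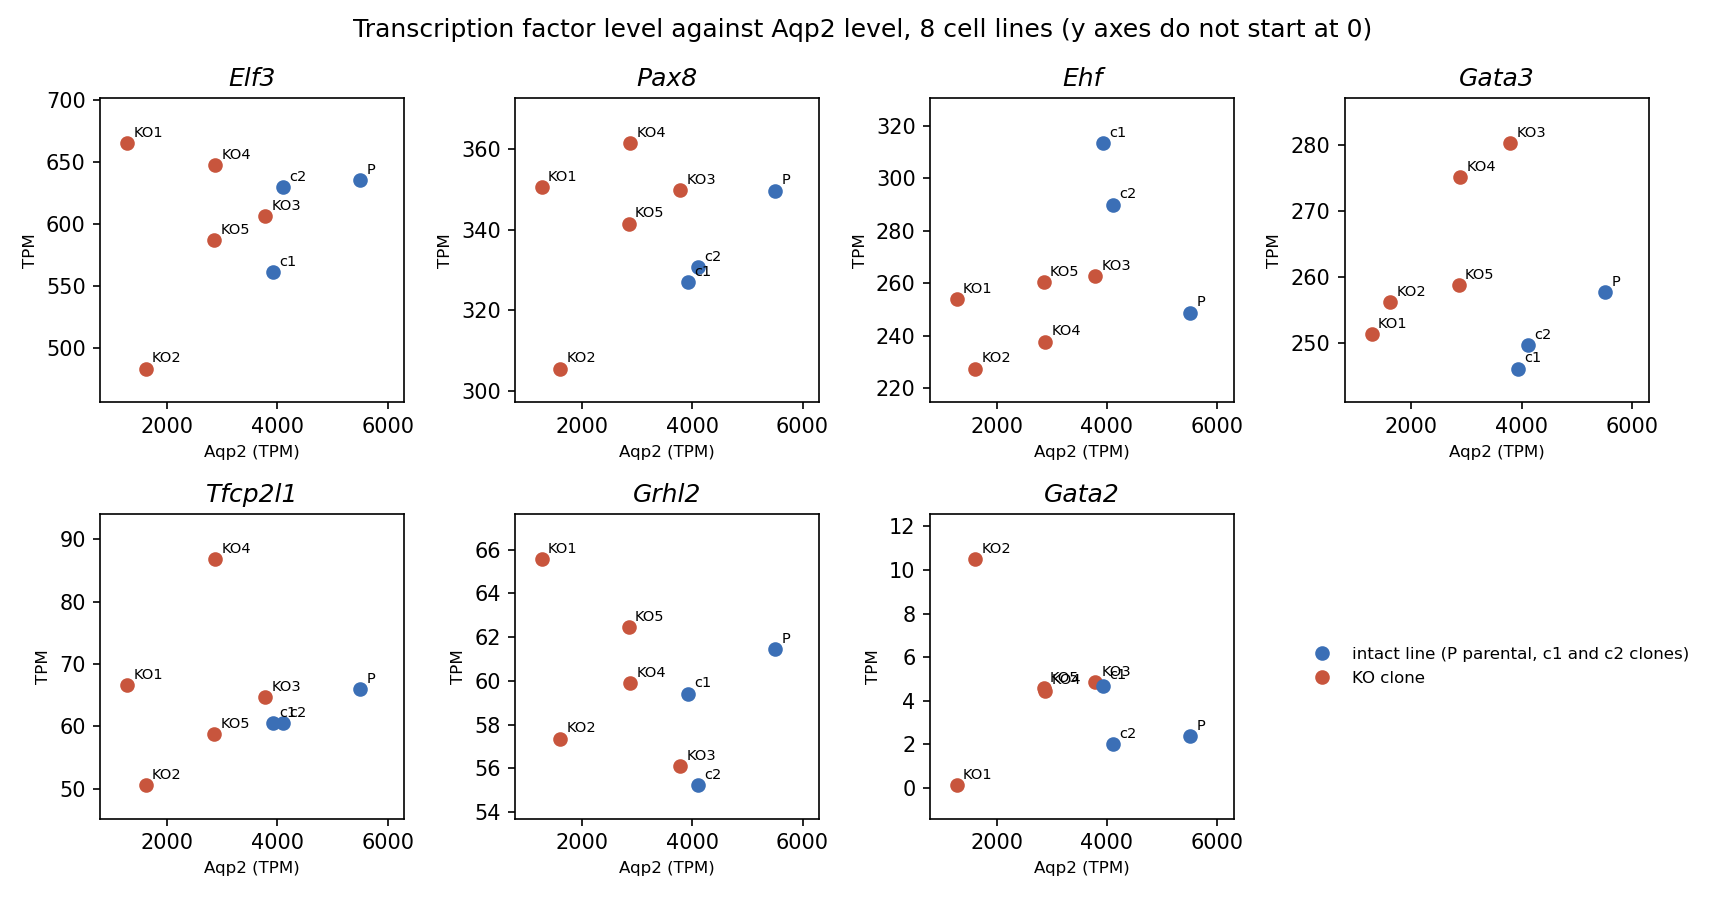
Level of each factor in TPM against Aqp2 in TPM, 1 point per cell line (3 intact lines and 5 KO clones, the paired samples of intact clones averaged), with y axes that do not start at 0. In the Gata3 panel the KO clones run from 251 TPM in KO 1 up to 280.2 TPM in KO 3 while the intact lines, all at higher Aqp2, lie between 246 and 258 TPM.

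For each tested factor the gene most alike over the 8 lines was named, by Pearson's r of log2(TPM + 1) among 13046 genes with a mean of at least 1 TPM. It was Sdcbp for Elf3 (r = 0.99), Nol7 for Ehf (r = 0.98), Colgalt1 for Gata2 (r = 0.99), Zfp618 for Gata3 (r = 0.97), Mul1 for Grhl2 (r = 0.95), Arhgap5 for Tfcp2l1 (r = 0.99) and Srf for Pax8 (r = 0.99). Each is the highest of 13046 values over 8 points and is a description only.

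Relatives of the factors were described from lists. Among 17 other ETS genes, 14 were tested and limma called 0 between KO and intact samples, with 2 higher and 0 lower at an unadjusted p under 0.05 (0.005% and 6.99% of all genes) and a median difference of 0.039. Ets2, Elf2, Elf1 and Ets1 were the most abundant, at means of 85.7, 62.2, 70.1 and 57.2 TPM, all below Elf3 and Ehf. Of the 4 other GATA genes, 2 were tested and 0 called, and Gata4, a factor of other organs, was present in some lines and listed at 0 in others. Gata4 stood at 6.86 and 6.43 TPM in intact clone 2, 8.01 TPM in KO 3, 3.10 TPM in KO 5 and 3.06 TPM in the parental line. It was listed at 0 in the pair of intact clone 1 and in KO 1, KO 2 and KO 4. Paired samples of a clone thus matched each other while clones of the same genotype differed. Among Grainyhead and CP2 relatives 3 of 4 were tested and 0 called. At an unadjusted p under 0.05 Tfcp2 was higher, 29.5 ± 0.758 TPM in intact and 33.4 ± 2.36 TPM in KO samples (SD, n = 5), and Grhl1 was lower, 22.3 ± 1.44 and 18.8 ± 2.49 TPM (SD, n = 5), neither passing adjustment by limma.

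The AP-2 gene with the highest level was Tfap2a, at 12.4 to 15.3 TPM in intact and 14.5 to 16.1 TPM in KO samples, and of the AP-2 list 1 of 4 was tested and 0 called. Of 8 other PAX genes 2 were tested and 0 called, with Pax2, a partner of Pax8 in the nephric duct, at 11.2 ± 0.842 TPM in intact and 13.6 ± 1.84 TPM in KO samples (SD, n = 5). Of 24 further nephric duct and tubule factors, which include Pax2 and Tfap2a, 15 were tested and 0 called by limma, with 5 higher and 0 lower at an unadjusted p under 0.05 (6.99% of all genes in both directions). Klf5 and Pax2 were among those higher. Klf5 was at 101 ± 5.46 TPM in intact and 122 ± 12.3 TPM in KO samples (SD, n = 5; adjusted p = 0.524 by limma). The median difference of the 15 was 0.092. Hoxb7, a homeobox factor of the ureteric bud and its derivatives, had a mean of 240.3 TPM, near the 257 TPM of Gata3, at 219 to 255 TPM in intact and 232 to 244 TPM in KO samples.

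Of the genes such factors act on or mark, 17 of 18 principal cell genes were tested, with 0 called between KO and intact samples (0.005% of all genes) and 1, Aqp2, called lower in exon 8 clones (0.595% of all genes). In exon 8 clones 5 of the 17 were lower and 0 higher at an unadjusted p under 0.05 (14.7% of all genes in both directions). They included Avpr2, with a difference of -0.66, and the sodium pump regulator Fxyd4, with -1.05, and both were lowest in KO 2, at 114 and 194 TPM. The median difference of the 17 principal cell genes between KO and intact samples was -0.11. Of 9 epithelial genes of the Grainyhead programme all were tested and 0 called, with a median of 0.024. Of 16 intercalated cell genes 9 were tested and 0 called, and 6 had a mean of at least 1 TPM. Atp6v1b1, at 21.8 to 49.3 TPM, and Aqp6, at 0.64 to 7.11 TPM, were present in every sample. Dmrt2 was present in every sample too, at a mean of 7.305 TPM. Rhcg, an ammonia transporter of intercalated and other distal cells, differed between lines, at 88.8 TPM in the parental line, 0.27 to 0.69 TPM in the intact clones, 80.2 to 159 TPM in KO 1 to KO 4 and 1.02 TPM in KO 5. Over the remaining lists limma called 0 genes. The summed level of the proximal tubule list was 7.58 to 13.0 TPM in intact and 6.69 to 15.1 TPM in KO samples, most of it Lrp2. The summed mesenchymal list was 36.3 to 65.7 TPM in intact and 31.4 to 137 TPM in KO samples, highest in KO 2.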

How the data were processed

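The 10 mpkCCD samples were profiled by RNA-seq. Full-length cDNA was amplified and sequenced as paired ends, and the authors aligned reads with STAR and quantified genes with RSEM. The deposited values are TPM per Ensembl gene, 1 column per sample, with 0 columns left unused. The authors' differential expression used edgeR on expected counts, which were not used here. Because only TPM were analysed, a log-scale test was used, and depth is unknown.

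Groups came from the labels, and the guide of each KO clone from the study's supplement. The labels give no batch. The members and gene lists were chosen with earlier results of these data known.

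The 20000 genes with the highest mean TPM (at least 0.049) were compared as log2(TPM + 1), a pseudocount of 1, with limma 3.58.1 in R 4.3.3 (intensity trend, Benjamini-Hochberg adjustment, threshold 0.05). KO against intact was a fit of 2 groups, guides a fit of 3 groups over all samples, and intact clones a fit of 3 lines. These fits were tested on simulated data. Single genes were compared with two-sided exact permutation tests. Relations to Aqp2 used 1 value per cell line and all 40320 pairings. Python 3.11.15 with pandas 2.3.3, numpy 2.4.6, scipy 1.17.1 and matplotlib 3.10.9 did the rest.

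Named genes were the 9 factors, Aqp2 and Camk2d, the most alike gene of each factor, and up to 4 of the most abundant genes of each list with any called gene. Of the principal cell list, Avpr2, Fxyd4, Hsd11b2, Scnn1a, Aqp3, Aqp4, Scnn1b, Kcne1, Kcnj1 and Slc14a2 were named outside this rule, after their values were seen. Another gene is not reported here. Promoters are RefSeq windows on GRCm38.p6 and gene positions and overlaps GENCODE M21 on GRCm38. The authors used a later annotation, and no coordinates came from their files.

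The alternatives were a pseudocount of 0.1 or 0.5, other gene filters, median ratios, quantile normalization, 1 value per cell line, cell line as a random effect (statmod 1.5.0), robust moderation or no trend in limma, 1 guide alone, linear TPM, and each sample left out.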

Additional observations from a re-analysis of the deposited data

Results flagged for a closer look

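Of 20 groups of 5 samples examined for a sample far from the others, 3 held one, all of them values of a gene listed at 0 in the other 4 samples of its group. Elf5 was at 0.11 TPM in intact clone 2 sample 1 and at 0.14 TPM in KO 1, and Tfap2b was at 0.01 TPM in KO 4. By chance about 1 group in 20 would be picked out in this way, and a group of zeros with 1 value above 0 is always picked out.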

How the results depend on the processing

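Of 763 values of 42 factor results under alternatives, 720 kept their direction and their side of the threshold. Another 42 changed sign, and 1 came past the threshold. The last was Gata2 between guides without KO 2, at 2.29, against -1.03 without KO 1. Each of these fits left 1 exon 8 clone, and in both more of all genes were called than with every sample. The cause was not tested. No sign change touched Ehf between KO and intact samples, whose adjusted p was 0.374 to 1 over its alternatives.

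Against intact samples, the exon 9 clones alone gave 0.025 for Elf3, and the exon 8 clones alone gave -0.024 for Pax8, -0.083 for Tfcp2l1 and -0.11 for Gata2. In exon 8 clones, Pax8 was at 0.00545 with quantile normalization and Gata3 at -0.023 with median ratios. Between intact clones, quantile normalization gave -0.086 for Aqp2 and -0.00855 for Pax8. The relation to Aqp2 without KO 1 and KO 2 was -0.23 for Pax8, -0.35 for Gata3, -0.30 for Tfcp2l1 and -0.67 for Gata2, that of Gata3 over all 10 samples was -0.016, and that of Gata2 on linear TPM was -0.27.

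With 1 sample left out at a time, the difference between KO and intact ranged from -0.060 to 0.054 for Elf3, from -0.040 to 0.15 for Tfcp2l1 and from -0.049 to 0.78 for Gata2. Between guides it ranged from -0.12 to 0.34 for Elf3, from -0.0032 to 0.15 for Ehf, from -0.14 to 0.050 for Grhl2 and from -1.03 to 2.29 for Gata2. In exon 8 clones the ranges were -0.32 to 0.14 for Elf3, -0.12 to 0.075 for Pax8, -0.28 to 0.11 for Tfcp2l1, -0.018 to 0.17 for Grhl2 and -1.77 to 1.55 for Gata2. In exon 9 clones they were -0.014 to 0.056 for Elf3 and -0.0032 to 0.073 for Grhl2. Between intact clones they were -0.013 to 0.14 for Aqp2, -0.0097 to 0.041 for Pax8, -0.019 to 0.059 for Gata3 and -0.030 to 0.034 for Tfcp2l1. With 1 line left out, r with Aqp2 ranged from -0.42 to 0.75 for Elf3, -0.31 to 0.56 for Pax8, -0.083 to 0.27 for Gata3, -0.18 to 0.35 for Tfcp2l1, -0.64 to 0.10 for Grhl2 and -0.88 (without KO 1) to 0.63 (without KO 2) for Gata2.

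The number of genes called between KO and intact was 1, and 2 with a pseudocount of 0.1, 50 with exon 8 clones alone and 1 to 2 with a sample left out. Between guides it was 62, and 6 with 1 value per cell line, 36 with cell line as a random term and 21 to 1730 with a sample left out, the highest without KO 1. In exon 8 clones it was 119, and 10 and 55 under the same alternatives and 37 to 2167 with a sample left out, again highest without KO 1. In exon 9 clones it was 1, and 3 with all genes above 0 and 1 to 11 with a sample left out, the highest without KO 4. Between intact clones it was 0, and 249 with genes of at least 1 TPM on average, 11 without a trend, 183 with robust moderation and 0 to 0 with a sample left out.

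No paired analysis was possible because the replicate numbers of KO clones and intact samples name unrelated lines. TPM hold no depth, so counting error is unknown for Gata2, Elf5 and Tfap2b in particular, and each guide is represented by 2 or 3 clones.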
